A study of Mus musculus with 14 samples.

Results

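The 39 genes described here encode the structure of the cardiac sarcomere, its anchorage to the cytoskeleton, and the proteins that assemble and remove it. They were picked from the 49315 genes of the count table by their names, and the list was drawn up with earlier results of these data known. Grouped by role, they comprise 5 genes of the thick filament and titin, 5 of thin filament regulation, 6 of the ends and length of the thin filament, 4 of the M-band, 9 of the Z-disc, 4 of the intermediate filaments and costamere, and 6 of turnover and assembly. All 39 were listed in the table, and 38 had enough reads to be tested among the 15292 genes that passed the filter on low counts. The gene below the filter was Myoz1, a Z-disc calsarcin best known from fast skeletal muscle, at 0.0725 to 0.527 CPM, the count of a gene scaled to the size of its library.

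The sarcomere is the contractile unit of striated muscle. Myosin thick filaments are held in register at the M-band in its middle, actin thin filaments are anchored at the Z-disc at its borders, and the giant protein titin spans from one to the other. Troponin and tropomyosin on the thin filament make contraction depend on calcium, and desmin filaments and costameres link the Z-discs to each other and to the cell membrane. Muscle-specific ubiquitin ligases and chaperones replace worn parts, and a ventricle that works against a raised pressure adds sarcomeres.

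The study compared wild type (WT) mice with HCN4F mice, a knock-in line that carries the Y527F exchange in Hcn4, the pacemaker channel gene of the sinoatrial node. Male mice had transverse aortic constriction (TAC), a surgical narrowing of the aorta that loads the left ventricle with pressure, or a Sham operation at 10 to 12 weeks of age, and the hearts were taken 5 weeks later. RNA of the left ventricle was sequenced after polyA selection from 4 WT-Sham, 4 HCN4F-Sham, 2 WT-TAC (replicates 2 and 3) and 4 HCN4F-TAC hearts; further WT-TAC hearts were not analysed here. No group is labelled with a transgene or Cre, and the labels do not say whether HCN4F mice were homozygous. A single exchanged base cannot be checked in gene counts, and Hcn4 itself ranged from 3.49 to 13.5 CPM over all libraries.

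Total counts ranged from 22309914 to 35210939 per library, so that 3 counts, taken here as the detection floor, corresponded to 0.0859 to 0.137 CPM. Mitochondrial transcripts took 13.9 to 23.1% of the counts. The 39 genes together took 6.37% ± 0.186 (SD, n = 4) of all counts in WT-Sham, 6.10% ± 0.285 (SD, n = 4) in HCN4F-Sham, 6.15% in the 2 WT-TAC libraries and 6.02% ± 0.169 (SD, n = 4) in HCN4F-TAC. All 15 cardiomyocyte marker genes outside the sarcomere passed the filter and were tested, as were 5 of 13 markers of skeletal muscle. Of these 13 markers 4, among them Myod1 and Myh4, never exceeded 3 counts, and the summed level of all 13 lay between 5.89 and 23.0 CPM. The tissue is a mixture of cells, and in such bulk RNA a lower share of cardiomyocytes and less RNA per cardiomyocyte cannot be told apart.

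Per kilobase of transcript, the genes ranged from the main filament proteins to genes near the floor. In WT-Sham, the ventricular light chain gene Myl2 was highest at 9773 CPM per kilobase, followed by Tnnt2 at 9727 and Myl3 at 7507 CPM per kilobase. Among the turnover genes, Trim54 reached 203 CPM per kilobase, Trim63 97.7 and Fbxo32 26. At the low end, Myom3 stood at 0.292 CPM per kilobase. All further levels are CPM on the TMM scale, which corrects for library size and composition and not for length, so they compare one gene between libraries.

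After TAC, the Z-disc genes Actn2, Ldb3 and Myot and the M-band gene Myom1 rose in both genotypes, and the troponin genes Tnnt2 and Tnni3 fell in both. Differences are given as log2 fold changes with their standard error from edgeR's quasi-likelihood test, with p-values adjusted by Benjamini-Hochberg over all 15292 genes. A gene is said to rise or fall where the adjusted p was under 0.05. In WT hearts, 4 of the 38 genes rose after TAC and 2 fell, against 2.92% of all genes tested that rose and 1.62% that fell. In HCN4F hearts, 12 rose and 5 fell, against 7.2% and 6.41% of all genes. The order of these counts depended on the fit. With edgeR on the 2 compared groups alone, 12 rose and 4 fell in WT, where 13.6% of all genes passed, and 9 rose and 1 fell in HCN4F, where 8.98% of all genes passed. DESeq2 on the compared groups gave 15 and 4 in WT (16% of all genes) and 13 and 5 in HCN4F (12.8% of all genes). On the compared groups alone, edgeR called the 6 WT genes of the fit of all groups and also Mybpc3, Mypn, Pdlim5, Smyd1, Des, Palld, Cmya5 and Trim55, higher, and Tpm1 and Myl2, lower, with adjusted p from 0.0056 to 0.0449, and DESeq2 further added Lmod2, Myom2 and Nebl. With DESeq2 on all groups, Mybpc3, Mypn and Tpm1 joined the 6 WT genes, and 9.48% of all genes passed. Other alternatives lowered the WT count, to 3 relative to cardiomyocyte genes or with a trend by transcript length removed, to 1 without WT-TAC replicate 2 and to 0 without WT-TAC replicate 3. The median log2 fold change of the 38 genes was 0.072 in WT and 0.14 in HCN4F hearts, beside -0.023 and -0.0067 over all genes. With the further limit of a log2 fold change above 1 that the study set, only Myot passed, in both genotypes, against 0.445% of all genes in WT and 1.58% in HCN4F hearts.

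The WT and HCN4F responses share no library. Tnnt2, Tnni3, Myom1, Actn2, Ldb3 and Myot passed in both genotypes, each in the same direction, and of the 38 genes 30 (78.9%) had the same sign, as did 67.9% of all genes tested. With 2 WT-TAC libraries, groups separate without overlap more easily than with 4. The share of all genes that separated was counted only between the TAC groups. Neither the numbers of calls nor such separation tests a difference between genotypes. That test, the genotype by surgery interaction, passed for 0 of the 38 genes and for 0% of all genes. At an unadjusted p under 0.05 the interaction named 3 of the 38 genes, beside 9.27% of all genes. DESeq2 on all groups called 0 of the 38 genes and 0.325% of all genes, and without HCN4F-TAC replicate 3 edgeR called 0 of the 38 and 0.51% of all genes.

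**Figure D1:**
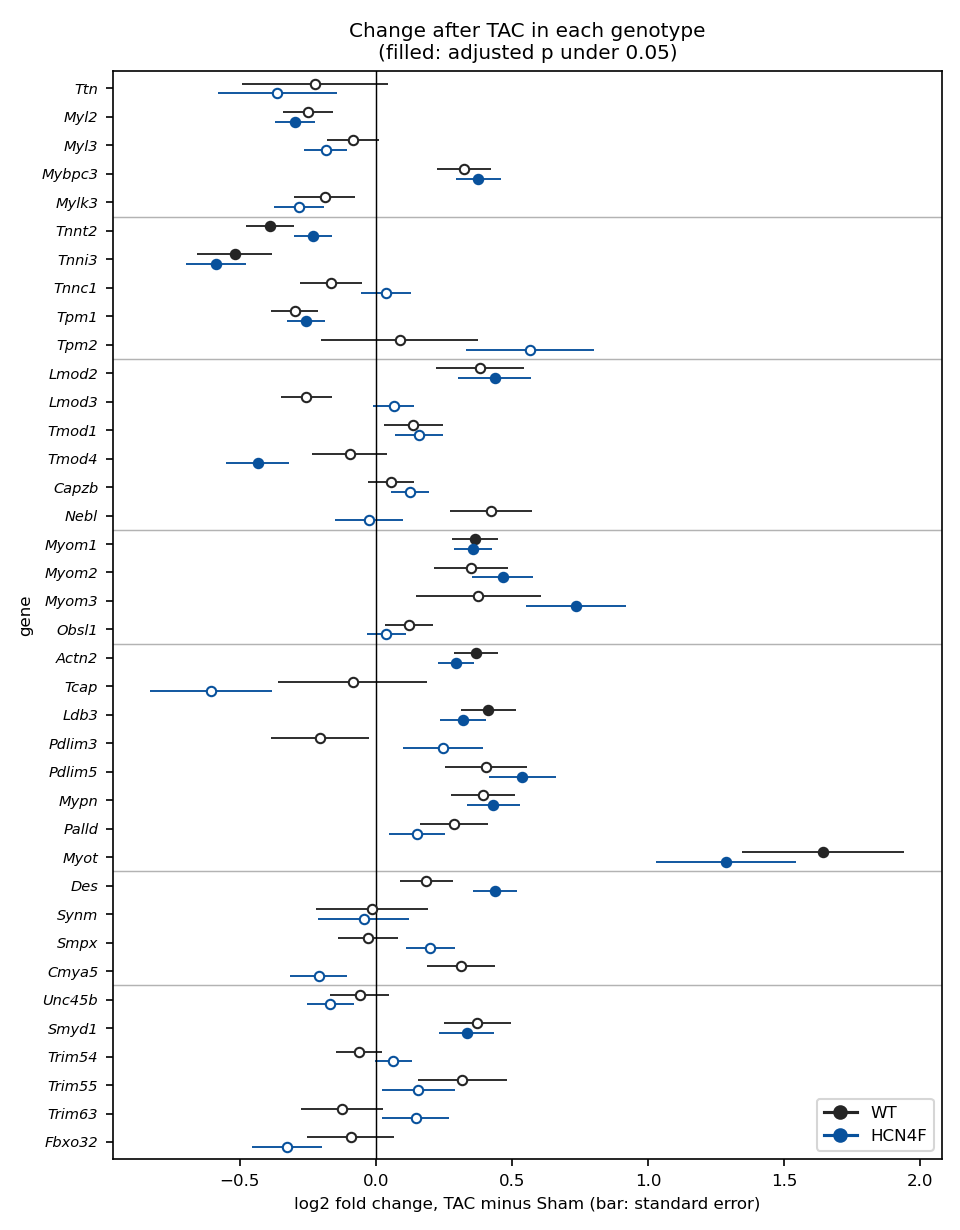
Log2 fold change after TAC in WT (black) and HCN4F (blue) hearts for the 38 tested genes, ordered by role; bars are standard errors and filled points have an adjusted p under 0.05. M-band and Z-disc genes lie mostly to the right of 0 in both genotypes, troponin T and I lie to the left, and Myot is farthest right at 1.64 in WT and 1.29 in HCN4F.

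**Figure D2:**
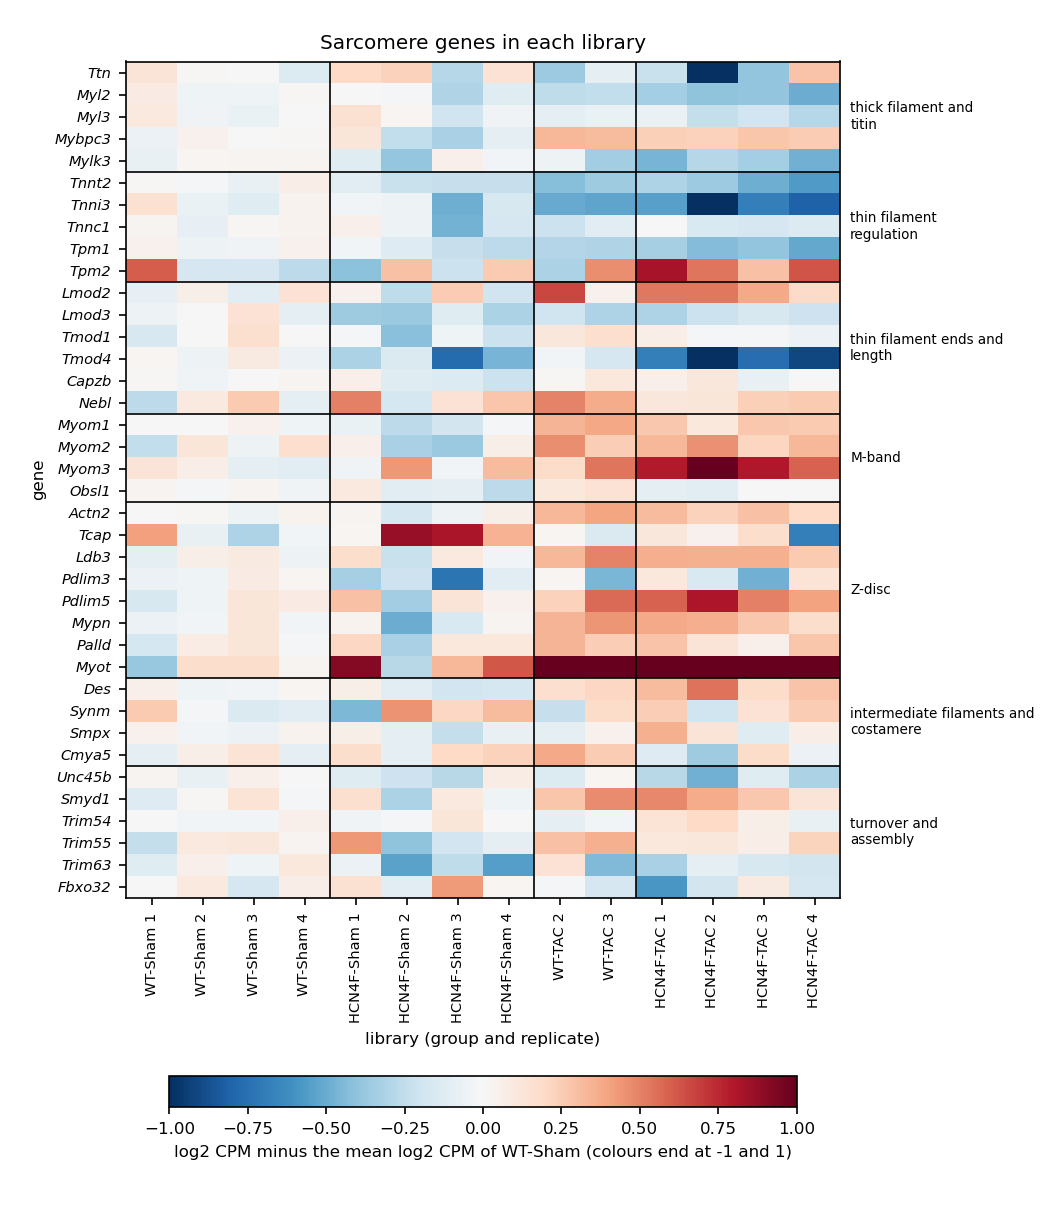
Log2 CPM of each of the 38 tested genes in each of the 14 libraries, as the difference from the mean of the 4 WT-Sham libraries, with colours ending at a difference of 1 in either direction. The rows of Myom1, Actn2, Ldb3, Mypn and Myot are red in all 6 TAC libraries and the rows of Tnnt2, Tnni3 and Tpm1 are blue in all 6.

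Of the 5 genes of thin filament regulation, 2 fell in WT hearts and 3 in HCN4F hearts, against 1.62% and 6.41% of all genes, and none rose. Tnnt2 (chr1:135836354-135852260, plus strand) encodes troponin T, which ties the troponin complex to tropomyosin. In WT hearts, Tnnt2 stood at 10834, 10649, 10219 and 11254 CPM in the Sham libraries and at 7983 and 8403 CPM in the TAC libraries. In HCN4F hearts, Tnnt2 stood at 9927, 9211, 9166 and 9151 CPM after Sham and at 8671, 8338, 7671 and 7231 CPM after TAC. Every TAC library lay below every Sham library of its genotype. The log2 fold change was -0.39 ± 0.089 (SE, adjusted p = 0.0257) in WT and -0.23 ± 0.071 (SE, adjusted p = 0.0397) in HCN4F hearts. The HCN4F value lay between -0.27 and -0.075 over 25 alternative analyses, 16 of which lost the call.

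Tnni3 (chr7:4518305-4524229, minus strand) encodes cardiac troponin I, the inhibitory subunit. In WT hearts, Tnni3 stood at 3896, 3352, 3226 and 3589 CPM in the Sham libraries and at 2473 and 2436 CPM in the TAC libraries. In HCN4F hearts, Tnni3 stood at 3447, 3384, 2499.5 and 3142 CPM after Sham and at 2400.3, 1704, 2189 and 2002 CPM after TAC. The groups did not overlap in either genotype, and HCN4F-TAC replicate 2 was the lowest of all. Tnni3 changed by -0.52 ± 0.14 (SE, adjusted p = 0.0427) in WT, a call lost in 10 of 25 alternatives, and by -0.59 ± 0.11 (SE, adjusted p = 0.00221) in HCN4F hearts. Exons of Dnaaf3 overlap those of Tnni3 on the same strand. Tpm1 (chr9:67022590-67049406, minus strand), the main tropomyosin of the ventricle, followed the same direction. In WT hearts, Tpm1 stood at 8314, 7827, 7908 and 8321 CPM in the Sham libraries and at 6597 and 6567 CPM in the TAC libraries. In HCN4F hearts, Tpm1 stood at 7949.7, 7388, 6899 and 6729 CPM after Sham and at 6421, 5982, 6151 and 5687 CPM after TAC. Both TAC groups lay below their Sham groups. The decrease passed in HCN4F at -0.26 ± 0.070 (SE, adjusted p = 0.021), a call lost in 4 of 25 alternatives, and WT had a value of -0.30 ± 0.086 (SE, adjusted p = 0.058).

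The other members of the group did not pass. Tnnc1, the calcium-binding troponin C, had log2 fold changes of -0.17 ± 0.11 in WT and 0.036 ± 0.092 in HCN4F. Tpm2, a tropomyosin of slow muscle, was a minor transcript at 21.6 to 50.8 CPM, with 0.088 ± 0.29 in WT and 0.57 ± 0.24 in HCN4F, the highest value of the group with the widest error, which DESeq2 on all groups called (0.57, adjusted p = 0.0458).

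In the thick filament, the light chain Myl2 fell and the myosin-binding protein Mybpc3 rose in HCN4F hearts. Myl2 (chr5:122100951-122113472, plus strand) encodes the regulatory light chain of ventricular myosin. In WT hearts, Myl2 stood at 7535, 6896, 6898 and 7169 CPM in the Sham libraries and at 5973 and 6004 CPM in the TAC libraries. In HCN4F hearts, Myl2 stood at 7083, 7017, 5779.8 and 6540.2 CPM after Sham and at 5638, 5389, 5428 and 5039 CPM after TAC. The TAC libraries were lower without overlap in both genotypes. Myl2 passed in HCN4F hearts at -0.30 ± 0.074 (SE, adjusted p = 0.0131), a call lost in 3 of 25 alternatives, and had -0.25 ± 0.091 (SE, adjusted p = 0.12) in WT. Mybpc3 (chr2:91118144-91136516, plus strand), whose product cardiac myosin-binding protein C tunes cross-bridge cycling, was higher after TAC. In WT hearts, Mybpc3 stood at 4285, 4599, 4446 and 4500.4 CPM in the Sham libraries and at 5604 and 5561 CPM in the TAC libraries. In HCN4F hearts, Mybpc3 stood at 4851, 3752, 3567 and 4178 CPM after Sham and at 5268, 5229.9, 5412 and 5321 CPM after TAC. Every TAC library exceeded every Sham library of either genotype. The increase passed in HCN4F at 0.38 ± 0.083 (SE, adjusted p = 0.00628) and reached 0.32 ± 0.10 (SE, adjusted p = 0.072) in WT, where DESeq2 on all groups called it (0.34, adjusted p = 0.0195).

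Ttn, the titin gene, ranged from 9296 to 11147 CPM in WT-Sham and from 4754 to 12408 CPM in HCN4F-TAC, where replicate 2 was lowest and replicate 4 highest, and its fold changes of -0.22 ± 0.27 and -0.36 ± 0.22 did not pass. Without HCN4F-TAC replicate 4 the HCN4F value was -0.61 (adjusted p = 0.0426). Myl3, the essential light chain, gave -0.083 ± 0.097 in WT and -0.18 ± 0.079 in HCN4F. Mylk3, the kinase that phosphorylates Myl2, gave -0.19 ± 0.11 in WT and -0.28 ± 0.092 (SE, adjusted p = 0.0513) in HCN4F, where DESeq2 on all groups called it (-0.28, adjusted p = 0.0358).

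M-band genes had positive log2 fold changes after TAC in each genotype, with a median log2 fold change of 0.36 in WT and 0.41 in HCN4F. In WT, 1 of 4 rose, in HCN4F 3 of 4 rose, against 2.92% and 7.2% of all genes, and none fell. Myom1 (chr17:71002633-71126856, plus strand) encodes myomesin, which bridges neighbouring thick filaments. In WT hearts, Myom1 stood at 1396, 1399.6, 1439.7 and 1358 CPM in the Sham libraries and at 1768 and 1831 CPM in the TAC libraries. In HCN4F hearts, Myom1 stood at 1338, 1165, 1228 and 1387 CPM after Sham and at 1685, 1503, 1687 and 1677 CPM after TAC. All 6 TAC libraries exceeded all 8 Sham libraries. Myom1 rose by 0.36 ± 0.084 (SE, adjusted p = 0.0272) in WT and 0.36 ± 0.070 (SE, adjusted p = 0.00305) in HCN4F hearts. Its exons overlap those of Myl12a on the opposite strand. Myom2 (chr8:15057653-15133541, plus strand) encodes M-protein, a myomesin relative of fast and adult cardiac fibres. In WT hearts, Myom2 stood at 1059, 1366, 1214 and 1413 CPM in the Sham libraries and at 1731 and 1487 CPM in the TAC libraries. In HCN4F hearts, Myom2 stood at 1304, 1005, 970.5 and 1309 CPM after Sham and at 1581, 1723, 1454 and 1581 CPM after TAC. The TAC libraries again lay above all Sham libraries of their genotype. The increase passed in HCN4F at 0.47 ± 0.11 (SE, adjusted p = 0.0111), beside 0.35 ± 0.14 (SE, adjusted p = 0.141) in WT.

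Myom3 (chr4:135759715-135815564, plus strand), a myomesin of skeletal muscle, was scarce. In WT hearts, Myom3 stood at 1.77, 1.7, 1.53 and 1.5 CPM in the Sham libraries and at 1.85 and 2.35 CPM in the TAC libraries. In HCN4F hearts, Myom3 stood at 1.58, 2.19, 1.59 and 2.02 CPM after Sham and at 2.82, 4.15, 2.83 and 2.44 CPM after TAC. Its values rested on 40 to 126 counts per library, and HCN4F-TAC replicate 2 was the highest. It rose in HCN4F by 0.74 ± 0.18 (SE, adjusted p = 0.0133), a call lost without that library (adjusted p = 0.0628), and WT gave 0.38 ± 0.23 (SE, adjusted p = 0.35). Obsl1, an obscurin relative that links the M-band to the sarcoplasmic reticulum and cytoskeleton, differed little. In WT hearts, Obsl1 stood at 175, 170.2, 175 and 168 CPM in the Sham libraries and at 185 and 189.7 CPM in the TAC libraries. In HCN4F hearts, Obsl1 stood at 184, 159, 162 and 144 CPM after Sham and at 162, 159.6, 172 and 172 CPM after TAC. WT-TAC lay above WT-Sham and above HCN4F-TAC, but the differences of 0.12 ± 0.088 and -0.17 ± 0.088 did not pass.

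Of the Z-disc genes, 3 of 8 tested rose in WT hearts and 5 of 8 in HCN4F hearts, against 2.92% and 7.2% of all genes, and none fell. The cross-linker of actin at the Z-disc is α-actinin, encoded by Actn2 (chr13:12269426-12340760, minus strand). In WT hearts, Actn2 stood at 2179.6, 2196, 2106 and 2232 CPM in the Sham libraries and at 2749 and 2869.8 CPM in the TAC libraries. In HCN4F hearts, Actn2 stood at 2218, 1929, 2099 and 2269.8 CPM after Sham and at 2718, 2555, 2672 and 2506 CPM after TAC. Each TAC library was above each of the 8 Sham libraries. Actn2 rose by 0.37 ± 0.080 (SE, adjusted p = 0.0221) in WT and by 0.30 ± 0.067 (SE, adjusted p = 0.00761) in HCN4F hearts. Ldb3 (chr14:34526603-34588682, minus strand) encodes cypher, a PDZ-LIM protein that binds α-actinin. In WT hearts, Ldb3 stood at 804, 893, 912 and 828 CPM in the Sham libraries and at 1082 and 1207 CPM in the TAC libraries. In HCN4F hearts, Ldb3 stood at 970.1, 734, 916 and 843 CPM after Sham and at 1101, 1098, 1099 and 1027 CPM after TAC. The groups were again separate. Ldb3 rose by 0.41 ± 0.10 (SE, adjusted p = 0.0313) and 0.32 ± 0.083 (SE, adjusted p = 0.0162).

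Myot encodes myotilin, a Z-disc protein that bundles actin and binds α-actinin and filamin. In WT hearts, Myot stood at 21.8, 31.9, 31.9 and 28.8 CPM in the Sham libraries and at 67.4 and 111 CPM in the TAC libraries. In HCN4F hearts, Myot stood at 53.5, 23.4, 35.5 and 43.5 CPM after Sham and at 114, 115, 73.9 and 78.3 CPM after TAC. All 6 TAC libraries were above all 8 Sham libraries, and WT-TAC replicate 3 and HCN4F-TAC replicates 1 and 2 were highest. With log2 fold changes of 1.64 ± 0.30 (SE, adjusted p = 0.0149) in WT and 1.29 ± 0.26 (SE, adjusted p = 0.00643) in HCN4F, Myot had the largest change of the 38 genes. Without WT-TAC replicate 3 the WT value was 1.24 and no longer passed.

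Pdlim5 (chr3:142239590-142395696, minus strand) encodes ENH, a PDZ-LIM adaptor that holds protein kinases at the Z-disc. In WT hearts, Pdlim5 stood at 416, 451, 506 and 494 CPM in the Sham libraries and at 546 and 690.3 CPM in the TAC libraries. In HCN4F hearts, Pdlim5 stood at 569, 366, 510.3 and 479 CPM after Sham and at 701, 816, 662 and 617 CPM after TAC. Both TAC groups lay above their Sham groups. It passed in HCN4F at 0.54 ± 0.12 (SE, adjusted p = 0.00915), beside 0.40 ± 0.15 (SE, adjusted p = 0.125) in WT. Mypn (chr10:63115795-63203952, minus strand) encodes myopalladin, which tethers nebulin-family proteins and α-actinin. In WT hearts, Mypn stood at 162, 166, 184 and 166 CPM in the Sham libraries and at 214 and 229.8 CPM in the TAC libraries. In HCN4F hearts, Mypn stood at 173, 119.7, 152 and 172 CPM after Sham and at 219.8, 217, 204 and 191 CPM after TAC. Its TAC libraries were higher than all 8 Sham libraries. Mypn rose in HCN4F by 0.43 ± 0.098 (SE, adjusted p = 0.00802) and had 0.39 ± 0.12 (SE, adjusted p = 0.0666) in WT.

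Palld, the palladin gene, had 0.29 ± 0.12 in WT and 0.15 ± 0.10 in HCN4F, and did not pass. On the WT groups alone it passed at 0.30 with edgeR (adjusted p = 0.0329). Pdlim3, which encodes the actinin-associated LIM protein, was low at 8.93 to 16.3 CPM, and its values of -0.21 ± 0.18 and 0.25 ± 0.15 had opposite signs. Tcap, the titin cap, spread from 801 to 2364 CPM, with HCN4F-Sham replicates 2 and 3 highest and HCN4F-TAC replicate 4 lowest. Its log2 fold changes were -0.086 ± 0.27 (SE, adjusted p = 0.891) in WT and -0.61 ± 0.22 (SE, adjusted p = 0.0931) in HCN4F, where DESeq2 on all groups called it lower (-0.60, adjusted p = 0.0239).

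**Figure D3:**
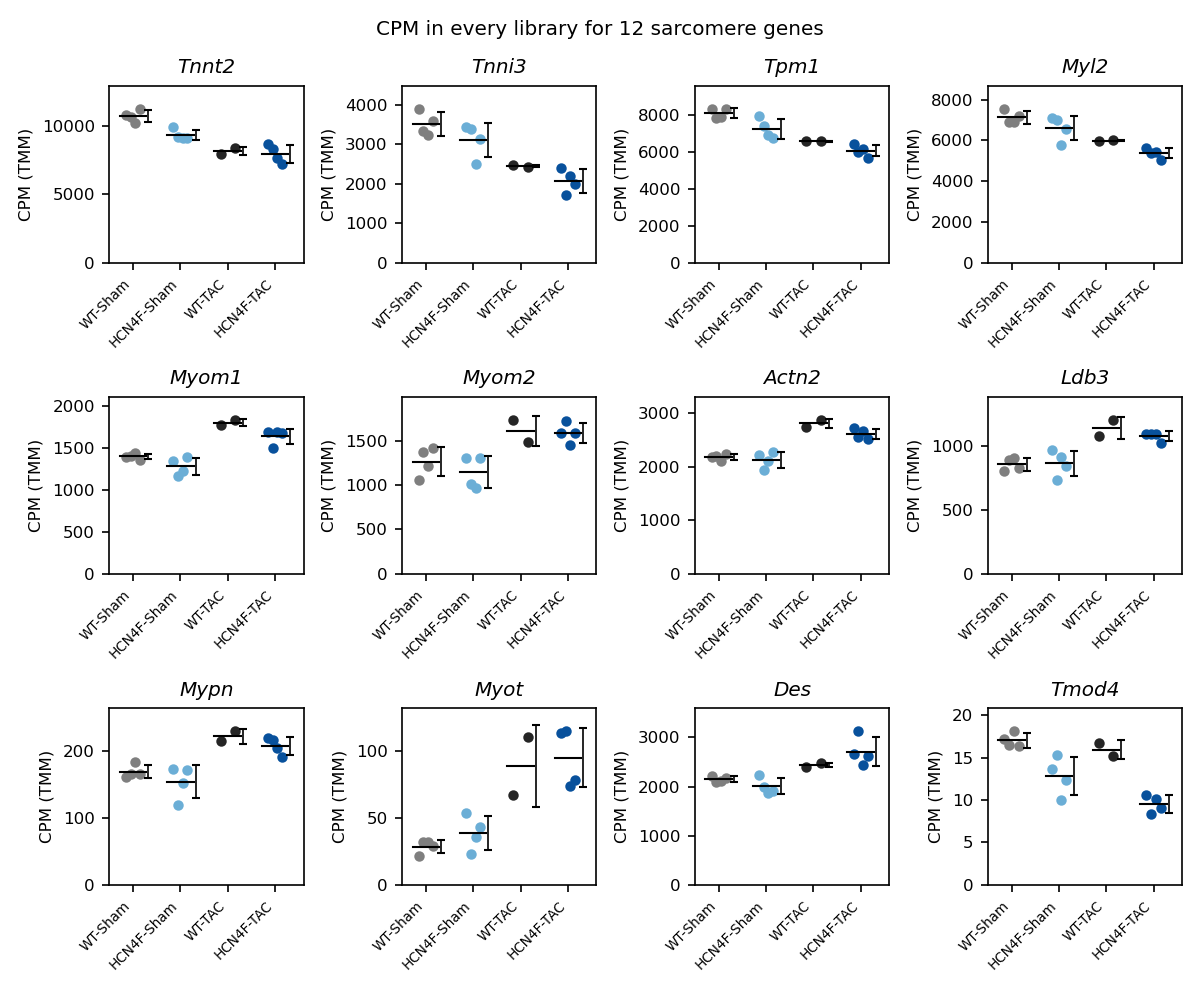
CPM in each library (points), group mean (line) and SD (bar, from 2 libraries in WT-TAC) for 12 of the genes, each panel starting at 0. In the upper row the TAC groups sit below the Sham group of their genotype, in the panels from Myom1 to Des they sit above, and Tmod4 is lowest in HCN4F-TAC.

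The 5 genes with a RefSeq promoter that changed in the same direction in both genotypes are shown with the 250 bases before their transcription start (GRCm38.p6, 5′ to 3′ on the strand of the gene), so that the genes that fell, Tnnt2 and Tnni3, can be set beside those that rose, Myom1, Actn2 and Ldb3. Capitals mark matches on either strand to the TATA box (TATAAA), the MCAT element (CATTCC), the GATA site (AGATAA), an E-box (CAGCTG), the MEF2 box or the CArG box, the site known for serum response factor. The start used for Tnnt2 and for Ldb3 is the farther upstream of 2 listed, and those of Myom1, Tnni3 and Actn2 lie inside the annotated gene, that of Actn2 just inside it.
Tnnt2 (chr1:135836084-135836333, plus strand): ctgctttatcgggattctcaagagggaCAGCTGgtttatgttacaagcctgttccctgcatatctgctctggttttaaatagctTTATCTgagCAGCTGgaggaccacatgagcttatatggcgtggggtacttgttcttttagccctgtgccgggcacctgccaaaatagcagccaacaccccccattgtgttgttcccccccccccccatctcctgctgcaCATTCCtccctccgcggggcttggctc
Tnni3 (chr7:4522529-4522778, minus strand): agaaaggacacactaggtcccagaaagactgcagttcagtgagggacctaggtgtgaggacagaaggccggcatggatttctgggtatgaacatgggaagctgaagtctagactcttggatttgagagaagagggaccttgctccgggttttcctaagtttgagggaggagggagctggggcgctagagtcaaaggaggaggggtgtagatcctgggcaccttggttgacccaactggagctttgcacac
Myom1 (chr17:71019307-71019556, plus strand): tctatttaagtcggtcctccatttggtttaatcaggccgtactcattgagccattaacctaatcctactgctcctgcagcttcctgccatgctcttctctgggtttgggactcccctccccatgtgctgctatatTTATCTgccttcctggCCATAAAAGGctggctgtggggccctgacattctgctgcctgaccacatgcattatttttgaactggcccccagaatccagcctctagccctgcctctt
Actn2 (chr13:12340733-12340982, minus strand): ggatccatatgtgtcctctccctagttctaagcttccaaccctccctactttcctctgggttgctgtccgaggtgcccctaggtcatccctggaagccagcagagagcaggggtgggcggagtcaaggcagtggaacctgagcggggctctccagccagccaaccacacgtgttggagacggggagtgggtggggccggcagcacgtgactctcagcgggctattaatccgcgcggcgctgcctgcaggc
Ldb3 (chr14:34588682-34588931, minus strand): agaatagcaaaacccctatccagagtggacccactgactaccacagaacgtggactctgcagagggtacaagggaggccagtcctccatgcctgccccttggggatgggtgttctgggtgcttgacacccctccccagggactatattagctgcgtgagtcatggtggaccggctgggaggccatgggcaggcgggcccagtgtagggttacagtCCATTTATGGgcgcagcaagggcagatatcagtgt
The Tnnt2 window held 2 E-boxes, a GATA site and an MCAT element that began 27 bases before the start. The CArG box of Myom1 began 99 bases and that of Ldb3 35 bases before the start, and the windows of Tnni3 and Actn2 held none of the 6 motifs. Promoters were listed for 32 of the 39 genes, and of their 42 windows 5 held a CArG box, 12 an MCAT element, 11 the E-box, 8 the GATA site, 6 the TATA box and 3 a MEF2 box. Over all 32851 windows of that length, the shares were 1.47% for the CArG box, 12.6% for the MCAT element, 13% for the E-box, 9.99% for the GATA site, 12.4% for the TATA box and 2.92% for the MEF2 box. Of the 12 windows of genes that rose in HCN4F hearts, 3 held the TATA box, 1 the MCAT element, 1 the GATA site, 2 the E-box, 2 the MEF2 box and 3 the CArG box, 2 of these being the overlapping windows of Ldb3. Of the 7 windows of genes that fell, 1 held the TATA box, 2 the MCAT element, 2 the GATA site, 2 the E-box, 0 the MEF2 box and 0 the CArG box. The other CArG boxes were those of Myl3 and Nebl, which did not pass. These are matches of letters, and binding was not measured.

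Genes that set the ends and length of the thin filament did not move together. Lmod2 (chr6:24597762-24605414, plus strand) encodes leiomodin 2, which lengthens thin filaments at their pointed ends. In WT hearts, Lmod2 stood at 659, 725, 645 and 769.7 CPM in the Sham libraries and at 1108 and 718 CPM in the TAC libraries. In HCN4F hearts, Lmod2 stood at 719, 584, 833 and 608 CPM after Sham and at 1004, 1006, 909 and 795 CPM after TAC. The groups overlapped in both genotypes, and WT-TAC replicate 2 was the highest library. Lmod2 rose in HCN4F by 0.44 ± 0.13 (SE, adjusted p = 0.0413), a call lost in 10 of 25 alternatives, and WT gave 0.38 ± 0.16 (SE, adjusted p = 0.178). Lmod3 encodes a leiomodin of skeletal and heart muscle. In WT hearts, Lmod3 stood at 94.5, 97.9, 108 and 91.3 CPM in the Sham libraries and at 85.3 and 79 CPM in the TAC libraries. In HCN4F hearts, Lmod3 stood at 76.4, 75.7, 90 and 78.5 CPM after Sham and at 79, 84.4, 87.4 and 84.9 CPM after TAC. The WT-Sham libraries were above all others. None of its differences passed in the fit of all groups, at -0.26 ± 0.092 (SE, adjusted p = 0.116) after TAC in WT and -0.29 ± 0.075 (SE, adjusted p = 0.0876) between the Sham groups. DESeq2 on all groups called the Sham difference (-0.29, adjusted p = 0.0128). Relative to cardiomyocyte genes, the HCN4F change after TAC passed (0.22, adjusted p = 0.0449).

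Tmod4 (chr3:95124476-95129209, plus strand), a tropomodulin of skeletal muscle that caps the pointed end, was the gene with the clearest genotype difference. In WT hearts, Tmod4 stood at 17.3, 16.5, 18.2 and 16.3 CPM in the Sham libraries and at 16.8 and 15.2 CPM in the TAC libraries. In HCN4F hearts, Tmod4 stood at 13.7, 15.4, 10 and 12.4 CPM after Sham and at 10.6, 8.3, 10.1 and 9.07 CPM after TAC. All HCN4F-Sham libraries were below all WT-Sham libraries, and all HCN4F-TAC libraries were below both WT-TAC libraries. In HCN4F, TAC replicates 1 and 3 lay within the Sham range, above Sham replicate 3, and the change passed at -0.43 ± 0.12 (SE, adjusted p = 0.0196), and WT had -0.097 ± 0.14 (SE, adjusted p = 0.721). The values rested on 223 to 530.0 counts per library.

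Nebl encodes nebulette, the cardiac relative of nebulin. In WT hearts, Nebl stood at 138, 177, 198 and 154 CPM in the Sham libraries and at 233 and 214 CPM in the TAC libraries. In HCN4F hearts, Nebl stood at 234, 146, 183 and 199.6 CPM after Sham and at 178, 179.8, 194 and 197 CPM after TAC. The WT groups did not overlap, whereas in HCN4F they did. As WT-TAC holds fewer libraries and separates more easily, this contrast does not show a genotype difference. The changes of 0.42 ± 0.15 (SE, adjusted p = 0.113) in WT and -0.024 ± 0.13 in HCN4F did not pass in the fit of all groups, nor did their difference, an interaction of -0.45 ± 0.20 (SE, adjusted p = 0.509). Tmod1, the main cardiac tropomodulin, had 0.14 ± 0.11 and 0.16 ± 0.088, and Capzb, which caps the barbed end at the Z-disc, had 0.057 ± 0.084 and 0.13 ± 0.069.

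Of the intermediate filaments and costamere, Des rose in HCN4F, and the other 3 genes did not pass in the fit of all groups. It encodes desmin (chr1:75360329-75368579, plus strand). In WT hearts, Des stood at 2219, 2086, 2105 and 2168 CPM in the Sham libraries and at 2404 and 2472 CPM in the TAC libraries. In HCN4F hearts, Des stood at 2235, 1995, 1876 and 1903 CPM after Sham and at 2669, 3131, 2436 and 2615 CPM after TAC. The TAC libraries exceeded the Sham libraries in both genotypes, and HCN4F-TAC replicate 2 was the highest. Des rose in HCN4F by 0.44 ± 0.081 (SE, adjusted p = 0.00201), with 0.19 ± 0.098 (SE, adjusted p = 0.281) in WT, where edgeR on the WT groups alone gave 0.20 (adjusted p = 0.0449). Smooth muscle also expresses desmin, and Des itself was on the list of 10 smooth muscle and pericyte genes, of which it was the only one that rose in HCN4F. The part of smooth muscle in the Des change was not tested. Cmya5, the gene of myospryn, which binds desmin and α-actinin, had values of opposite sign. In WT hearts, Cmya5 stood at 682, 756, 799 and 681 CPM in the Sham libraries and at 944 and 869 CPM in the TAC libraries. In HCN4F hearts, Cmya5 stood at 822, 680.2, 834 and 855 CPM after Sham and at 663, 569, 828 and 698 CPM after TAC. WT-TAC lay above WT-Sham and above HCN4F-TAC. Neither response passed, at 0.31 ± 0.13 (SE, adjusted p = 0.153) and -0.21 ± 0.10 (SE, adjusted p = 0.195), and the interaction of -0.52 ± 0.16 (SE, adjusted p = 0.431) had the lowest adjusted p of the 38 genes. Fitted on the WT groups alone, Cmya5 passed at 0.33 with edgeR (adjusted p = 0.0189) and DESeq2 (adjusted p = 0.00526), and in HCN4F it passed without HCN4F-TAC replicate 3 (-0.31, adjusted p = 0.04). Synm, the synemin gene, gave -0.014 ± 0.21 and -0.045 ± 0.17, and Smpx, a small protein of the costamere, gave -0.028 ± 0.11 and 0.20 ± 0.090. In HCN4F, Smpx passed relative to cardiomyocyte genes (0.36, adjusted p = 0.0249) and without HCN4F-TAC replicate 3 (0.27, adjusted p = 0.0427). It also passed there with a trend by transcript length removed (0.29, adjusted p = 0.0212).

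Among the genes of turnover and assembly, 1 of 6 rose in HCN4F hearts and 0 of 6 passed in WT, against 7.2% of all genes that rose in HCN4F and 4.54% that passed in WT. Smyd1 (chr6:71213940-71322233, minus strand) encodes a methyltransferase needed for myosin assembly. In WT hearts, Smyd1 stood at 370.1, 407, 446 and 399.8 CPM in the Sham libraries and at 489.9 and 561 CPM in the TAC libraries. In HCN4F hearts, Smyd1 stood at 453, 325, 433 and 393 CPM after Sham and at 564, 524, 489 and 444 CPM after TAC. The WT groups were separate and the HCN4F groups overlapped by 1 library. Smyd1 rose in HCN4F by 0.33 ± 0.10 (SE, adjusted p = 0.0384), a call lost in 7 of 25 alternatives. It gave 0.37 ± 0.12 (SE, adjusted p = 0.0908) in WT, where edgeR on the WT groups alone called it (0.39, adjusted p = 0.0135). The muscle RING-finger ligases Trim63 (MuRF1), Trim55 (MuRF2) and Trim54 (MuRF3) did not pass in the fit of all groups. In WT hearts, Trim55 stood at 53.1, 67.3, 67.8 and 64.1 CPM in the Sham libraries and at 76.7 and 80.4 CPM in the TAC libraries. In HCN4F hearts, Trim55 stood at 84.7, 47.4, 55.1 and 58.8 CPM after Sham and at 67.6, 67.8, 65.8 and 73.1 CPM after TAC. Both WT-TAC libraries of Trim55 were above those of WT-Sham and HCN4F-TAC. Its WT change was 0.32 ± 0.16 (SE, adjusted p = 0.268). Fitted on the WT groups alone, Trim55 passed at 0.33 with both edgeR (adjusted p = 0.0388) and DESeq2 (adjusted p = 0.0216), and in HCN4F it passed without HCN4F-Sham replicate 1 (0.35, adjusted p = 0.0203).

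Trim63, the ligase best known for muscle atrophy, ranged from 124 to 175 CPM in HCN4F-Sham and from 145 to 171 CPM in HCN4F-TAC, with log2 fold changes of -0.12 ± 0.15 in WT and 0.15 ± 0.12 in HCN4F. Fbxo32, which encodes atrogin-1, had -0.093 ± 0.16 in WT and -0.33 ± 0.13 (SE, adjusted p = 0.108) in HCN4F, where it passed without HCN4F-TAC replicate 3 (-0.43, adjusted p = 0.028). Trim54 had -0.061 ± 0.085 and 0.065 ± 0.069, and in HCN4F passed relative to the cardiomyocyte genes outside the sarcomere (0.22, adjusted p = 0.0499). Unc45b, the chaperone of myosin heads, had -0.060 ± 0.11 and -0.17 ± 0.087. A p above the threshold does not show that these genes were the same in both groups, and the standard error reached 0.16 for Fbxo32 in WT.

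Summed over each role group, thin filament regulation lay below the Sham range in every TAC library. The sums of the M-band and of intermediate filaments and costamere lay above it. The intermediate filament and costamere sum was 2805 to 3192 CPM over the 8 Sham libraries and 3389 to 3842 CPM over the 6 TAC libraries. The thin filament sum was 20237 to 25534 CPM over the 8 Sham libraries and 17050 to 19826 CPM over the 6 TAC libraries, and the M-band sum 2331 to 2941 CPM and 3316 to 3686 CPM. Their ratio was 7.42 to 9.66 in Sham and 4.97 to 5.78 in TAC libraries. The ratio of the thin filament sum to the Z-disc sum was 3.27 to 4.89 in Sham and 2.84 to 3.11 in TAC libraries. As both sums hold genes chosen with these results known, the ratios are descriptions without a test.

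**Figure D4:**
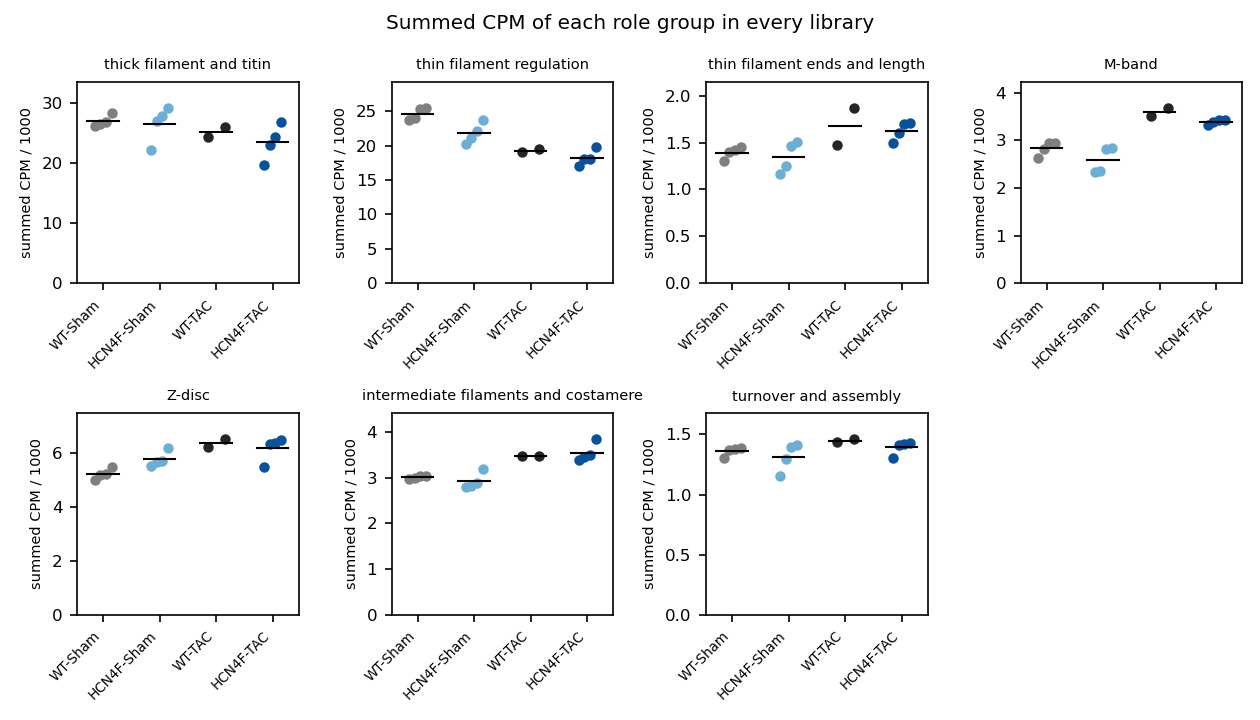
Summed CPM (axis in kilo-CPM) of each of the 7 role groups in every library (points) with the group mean (line). The panels of the M-band and of intermediate filaments and costamere separate Sham from TAC upwards. The panel of thin filament regulation separates them downwards, while turnover and assembly overlaps.

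Transcript length moved with these changes. Over 15257 tested genes with an annotated length, the log2 fold change after TAC in WT hearts had a rank correlation of 0.35 with transcript length, and the median went from -0.22 for transcripts under 1 kb to 0.15 above 5 kb. In HCN4F hearts the correlation was 0.18, and the medians were -0.16 and 0.032. The troponin and light chain genes that fell have short transcripts, such as 912 bases for Tnni3 and 1104 for Tnnt2, and Myom1 has 5354 bases. With this trend removed within each library, a step added after seeing the data, 3 genes passed in WT, all higher (Actn2, Ldb3 and Myot), and 17 in HCN4F, 13 higher and 4 lower. Of all genes, 1.55% then passed in WT and 12.8% in HCN4F, in place of 4.54% and 13.6%. The WT changes were then -0.24 for Tnnt2 (adjusted p = 0.145), -0.34 for Tnni3 (adjusted p = 0.15) and 0.27 for Myom1 (adjusted p = 0.0993). In HCN4F, Tnnt2 (-0.16, adjusted p = 0.133) and Myl2 (-0.18, adjusted p = 0.0544) no longer passed, while Tnni3 (-0.49, adjusted p = 0.00371), Tpm1 (-0.22, adjusted p = 0.03) and Myom1 (0.30, adjusted p = 0.00636) did. The cause of the trend was not tested.

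**Figure D5:**
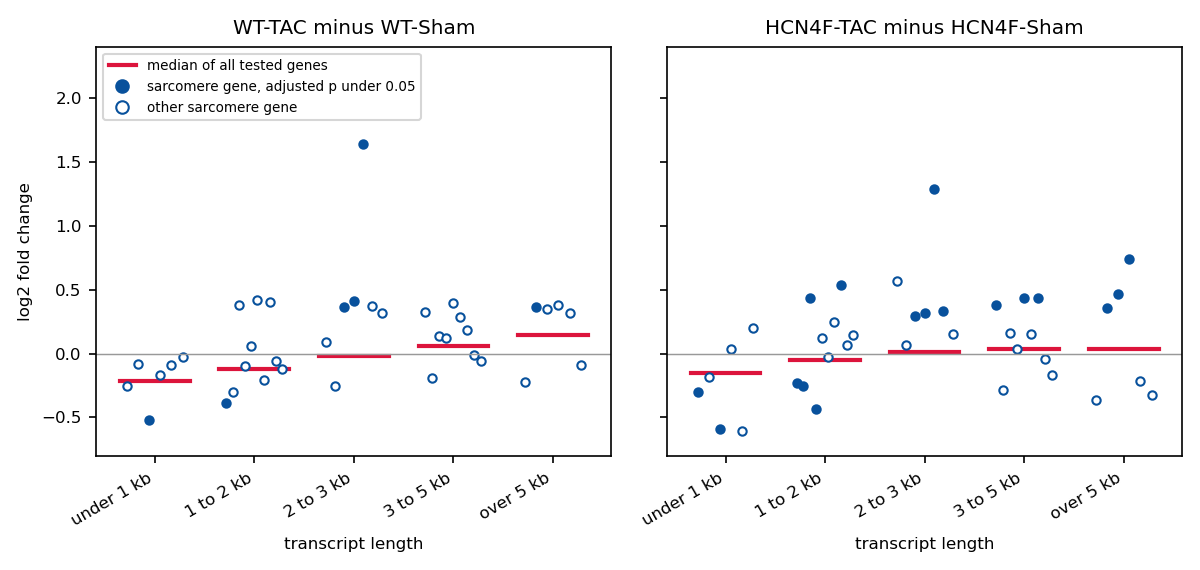
Log2 fold change after TAC of the 38 sarcomere genes (blue, filled where the adjusted p was under 0.05) by transcript length class, beside the median of all tested genes in that class (red line), in WT (left) and HCN4F (right). The red medians rise with length in WT from -0.22 to 0.15, and the sarcomere genes above 2 kb that passed all lie above the median of their class.

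Fibroblast genes moved with surgery in HCN4F hearts. Of 10 fibroblast genes 6 rose in HCN4F and none fell, with a summed level of 870 to 1115 CPM after Sham and 1083 to 1873 CPM after TAC, whereas in WT 0 rose and 1 fell, at 909 to 923 CPM and 849 to 1014 CPM. Over all genes tested, 7.2% rose and 6.41% fell in HCN4F, and 2.92% rose and 1.62% fell in WT. The 15 cardiomyocyte genes outside the sarcomere summed to 35291 to 42057 CPM in HCN4F-Sham and 32569 to 37801 CPM in HCN4F-TAC, where 1 rose and 4 fell. Of 10 endothelial genes 0 passed in either genotype, and of 9 genes of macrophages and leukocytes 1 rose in HCN4F. Genes of atrial muscle summed to 434 to 1900 CPM in HCN4F-TAC, highest in replicate 2, to 214 to 271 CPM in WT-TAC and to 99.7 to 212 CPM in the Sham groups. Of the 5 atrial genes tested, 2 rose and 1 fell in HCN4F hearts. The list holds Nppa, which the paper reports as raised by TAC in the left ventricle of both genotypes, so the sum does not measure atrial tissue alone. Without HCN4F-TAC replicate 2, 9 sarcomere genes rose and 4 fell in HCN4F hearts, beside 4.88% and 3.86% of all genes. In WT the cardiomyocyte genes summed to 38740 to 40892 CPM after Sham and 40441 to 40715 CPM after TAC. Relative to this cardiomyocyte list, the median of all genes was 0.15 in HCN4F after TAC, and 19 of the 38 genes passed, 18 higher and 1 lower (Tnni3), in place of 12 and 5, while of all genes 19.3% were called higher and 2.56% lower on that scale. With it, the HCN4F changes of Tnnt2 (-0.075, adjusted p = 0.536), Tpm1 (-0.10, adjusted p = 0.36) and Myl2 (-0.15, adjusted p = 0.251) did not pass. In WT, 3 genes passed on that scale, Tnnt2, Ldb3 and Myot, beside 2.41% of all genes. The part of cell composition, and of atrial tissue, in the result was not tested.

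Few of the genes passed between genotypes. In Sham hearts, 0 of the 38 genes passed between HCN4F and WT, against 0.229% of all genes that were higher in HCN4F and 0.242% that were lower. At an unadjusted p under 0.05 there were 7, beside 15.2% of all genes. DESeq2 on all groups called 2.68% of all genes and 2 of the 38, Lmod3 (-0.29, adjusted p = 0.0128) and Tmod4 (-0.42, adjusted p = 0.0336), and DESeq2 on the Sham groups alone called 3.02% of all genes, with Lmod3 and Tnnt2 (-0.20, adjusted p = 0.0468). The median log2 difference was -0.085, with 26 of 38 genes lower in HCN4F, beside a median of 0.0048 over all genes. Tnnt2 was lower in all 4 HCN4F-Sham libraries than in all 4 WT-Sham libraries, with a log2 difference of -0.20 ± 0.071 (SE, adjusted p = 0.205) in the fit of all groups.

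After TAC, 1 of the 38 genes passed between HCN4F and WT, Tmod4, which was lower in HCN4F, with a log2 difference of -0.75 ± 0.14 (SE, adjusted p = 0.0475). Of all genes, 0.0523% were lower and 0.0589% higher. With DESeq2 on all groups the shares were 0.366% lower and 1.12% higher, and without HCN4F-TAC replicate 3 they were 0.856% and 2.11%, with 2 of the 38 genes passing, Tmod4 and Cmya5. The Tmod4 call was lost in 13 of 25 alternatives, with a difference from -0.82 to -0.53, and its interaction with surgery was -0.34 ± 0.18 (SE, adjusted p = 0.581). The 13 skeletal muscle markers together separated in the same direction, at 18.3 and 23.0 CPM in WT-TAC and 7.64 to 16.5 CPM in HCN4F-TAC, whereas between the Sham groups, where Tmod4 did not overlap, they did, at 7.38 to 11.7 CPM in WT and 5.89 to 10.2 CPM in HCN4F. Their part in the Tmod4 difference was not tested. Myom3 had higher values in every HCN4F-TAC library than in both WT-TAC libraries, at 0.54 ± 0.22 (SE, adjusted p = 0.334), and did not pass. Including Tmod4, 12 of the 38 genes were lower in every HCN4F-TAC library than in both WT-TAC libraries, as were 11% of all genes tested, and besides Tmod4 none of the 12 passed. The largest of these differences was that of Cmya5, -0.40 ± 0.13 (SE, adjusted p = 0.203), which passed with no filter on low counts (-0.41, adjusted p = 0.0438) and without HCN4F-TAC replicate 3 (-0.50, adjusted p = 0.0282). The others were Nebl at -0.25 ± 0.15, Tnni3 at -0.24 ± 0.13, Trim55 at -0.20 ± 0.16, Obsl1 at -0.17 ± 0.088, Myl2 at -0.16 ± 0.090, Tmod1 at -0.15 ± 0.11, Myom1 at -0.14 ± 0.085, Tpm1 at -0.12 ± 0.085, Actn2 at -0.10 ± 0.081 and Mybpc3 at -0.073 ± 0.10. The cardiomyocyte genes outside the sarcomere separated in the same direction, at 32569 to 37801 CPM in HCN4F-TAC and 40441 to 40715 CPM in WT-TAC, with 13 of 15 lower. All 10 fibroblast genes and all 9 tested genes of macrophages and leukocytes had higher values in HCN4F-TAC, and none of these genes passed. The part of cell composition in the genotype differences was not tested. Over the 38 genes the standard error of the interaction had a median of 0.16 on the log2 scale.

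Other genes of the same structures gave the wider picture. Of 27 tested genes on a list of further Z-disc and costamere genes, 13 rose in WT and 13 in HCN4F after TAC and none fell. For this and the lists below, the shares of all genes tested were 2.92% higher and 1.62% lower in WT. In HCN4F the shares were 7.2% and 6.41%. Synpo2l, which encodes an actin-binding Z-disc protein, rose by 1.53 ± 0.19 in WT and 2.30 ± 0.17 in HCN4F. Ankrd1, a stress-responsive ankyrin protein that binds titin and myopalladin, rose by 1.04 ± 0.21 and 2.27 ± 0.19, and was the only gene of the list that passed between the TAC groups, with more in HCN4F, at 1.32 ± 0.23 (SE, adjusted p = 0.0486). Ankrd2, its scarce relative, rose in HCN4F by 1.96 ± 0.39. Of 22 further filament genes, 2 rose in WT, and 6 rose and 2 fell in HCN4F. These included Acta1, skeletal α-actin, which rose by 3.13 ± 0.35 in WT and 4.24 ± 0.34 in HCN4F, Mybpc2 with 1.82 ± 0.21 and 1.47 ± 0.18, and Myh7, the β-myosin heavy chain, with 2.46 ± 0.37 in HCN4F.

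Of 31 further genes of turnover and assembly, 1 rose in WT and 10 rose and 1 fell in HCN4F. Beside them, 2.92% of all genes rose in WT, and 7.2% rose and 6.41% fell in HCN4F. The log2 fold changes of this list ran from -0.996 to 0.83 in HCN4F. The chaperone genes Hsp90aa1, Hspb6 and Hspb1 rose in HCN4F by 0.83 ± 0.23, 0.79 ± 0.094 and 0.72 ± 0.15, and the highest log2 fold change of the list in WT was 0.48. Among 17 regulators of sarcomere genes and of atrophy genes, Tead1, which binds MCAT elements, rose by 0.56 ± 0.14 in WT and 0.51 ± 0.11 in HCN4F, and Srf, which binds CArG boxes, rose by 0.42 ± 0.11 in HCN4F. Transcript levels of a factor do not measure its binding. The genotype by surgery interaction passed for 0 genes of these further lists, so a value printed for HCN4F alone does not show a genotype difference.

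The number of calls changed with single libraries, for all genes as for these. Without WT-Sham replicates 1, 2 or 4 the count of sarcomere genes passing in WT was 1, 3 or 1, and the share of all genes 1.07, 2.42 or 1.05%. Without WT-TAC replicates 2 or 3 the count was 1 or 0 and the share of all genes 1.11 or 0.0695%, in place of 6 and 4.54%. In HCN4F hearts the count stayed between 13 and 18 as each library was left out, with 8.73 to 15.6% of all genes.

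Over 25 alternatives, the WT call of Tnni3 was lost in 10, that of Myom1 in 7, those of Tnnt2 and Ldb3 in 6 each, that of Actn2 in 5 and that of Myot in 2. In HCN4F hearts, the calls of Mybpc3, Tnni3, Myom1, Myom2, Pdlim5, Mypn, Myot and Des held in all 25. Those of Actn2, Ldb3 and Myom3 were lost in 1 each, Myl2 in 3, Tpm1 in 4, Tmod4 in 5, Smyd1 in 7, Lmod2 in 10 and Tnnt2 in 16.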

How the data were processed

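Left ventricular RNA was polyA-selected and sequenced on an Illumina platform. The authors deposited raw counts, reads per gene and library, with no normalization; the submitters' processing notes name the genome build GRCm38. Aligner, counting program, annotation and use of strand are not given in the sources used here, so reads of overlapping genes on opposite strands (Myom1 and Myl12a, Des and Gm15179, Cmya5 and A630019I02Rik) could not be told apart. In the table, 2 further columns of single libraries, whose names mark them as TAC and WT, could be tied to no sample described in the labels used here and were not used, and 174 identifiers with no gene name.

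Libraries were grouped by their labels. Genes were filtered with edgeR's filterByExpr by group, scaled with TMM, and fitted in 1 model with 4 group means (edgeR 4.0.16, limma 3.58.1, R 4.3.3, robust quasi-likelihood). CPM carry no pseudocount. DESeq2 1.42.0, the study's tool, was an alternative, as were other scalings, filters, fits on the compared groups only, a replicate block, leaving out each library, and, added after the data were seen, a length trend removed. The procedure was tested on simulated data, with planted changes larger than most reported here and only for HCN4F-TAC against HCN4F-Sham. That test does not cover the smaller changes or the comparisons with WT-TAC. Transcript lengths and positions came from GENCODE M21, which matched 99.3% of identifiers, and promoters from RefSeq. Figures were drawn with matplotlib 3.10.9 under Python 3.11.15. P-values measure the spread between hearts. Counting intervals and floors cover counting error only.

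The genes and lists were chosen with earlier results of these data known. Every gene was accounted for: values per library are given for genes that passed in any comparison and for those whose libraries did not overlap in at least 2 comparisons, and of each further list up to 3 genes with the largest change among those that passed after TAC.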

Additional observations from a re-analysis of the deposited data

Results flagged for a closer look

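Single libraries stood far from the other 3 of their group in 6 of 117 sets of 4 values, and chance alone flags about 1 in 20 such sets. Mylk3 was lowest in WT-Sham replicate 1 at 438 CPM, with the others at 469.7 to 471 CPM. Tpm2 was highest in the same library at 43.6 CPM, against 23.9 to 25.5 CPM. Tnnt2 in HCN4F-Sham replicate 1 stood at 9927 CPM, above 9151 to 9211 CPM in the other HCN4F-Sham libraries. Myom1 was lowest in HCN4F-TAC replicate 2 at 1503 CPM, against 1677 to 1687 CPM, and still above all Sham libraries. Ldb3 was lowest in HCN4F-TAC replicate 4 at 1027 CPM, against 1098 to 1101 CPM. Myoz1 in HCN4F-TAC replicate 2 reached 0.527 CPM, against 0.166 to 0.203 CPM; this gene was below the filter and was not tested.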

How the results depend on the processing

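Over the 24 gene results that passed, 600 alternative values kept their direction; 503 stayed past the threshold and 97 did not. The number of genes passing after TAC in WT hearts was 6, and became 19 with DESeq2 on the compared groups, 16 with edgeR on the compared groups, and 3 with scaling by the cardiomyocyte list or with the length trend removed. After TAC in HCN4F hearts it was 17, and became 10 with edgeR on the compared groups. Between Sham groups it was 0, and became 2 with DESeq2 on all groups or on the compared groups and 1 with no filter. Between TAC groups it was 1 (Tmod4), and became 0 with edgeR on the compared groups, with scaling by the cardiomyocyte list, which moved the median of all genes to 0.22, or with genes under 1 CPM on average removed, and 2 with no filter (Tmod4 and Cmya5). The interaction had 0 in each alternative run. The cause of these changes was not tested.

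As each library was left out, the counts ranged from 0 to 9 in WT, 13 to 18 in HCN4F, 0 to 0 between Sham groups, 0 to 2 between TAC groups and 0 to 0 for the interaction; of all genes, 0.0695 to 6.64% passed in WT and 8.73 to 15.6% in HCN4F. The Tmod4 call between TAC groups was lost without any 1 of the WT-Sham or WT-TAC libraries, without HCN4F-Sham replicate 4 or without HCN4F-TAC replicates 2 or 4.

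Replicate numbers were shared between groups, but deviations of same-numbered samples correlated by only -0.12 to 0.16 over 18 pairs, 2 of them over 0.1, so the numbers do not pair the samples. With the replicate block, 2 genes passed in WT (Myom1 and Actn2; 1.47% of all genes), 16 in HCN4F (12.9% of all genes), 0 between Sham groups, 0 between TAC groups and 0 for the interaction. WT-TAC held 2 libraries, so its comparisons rest largely on the spread within the other groups.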
